A study of Mus musculus with 8 samples.

Results

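The 8 genes described here belong to the liver X receptor (LXR) system of cholesterol removal: Abca1, Abcg1, Nr1h2, Nr1h3, Mylip, Apoe, Lpcat3 and Srebf1. They were named by function and were chosen with earlier results of these data known. The probe set that stands for each gene was chosen by its mean over all 8 arrays, a value that does not use the treatment groups. Of the 8 genes, 7 had a probe set named for them alone and 5 were tested, among 18193 genes with such a probe set and 8908 genes tested. RNA came from RAW 264.7, an established mouse macrophage line, on 8 Affymetrix whole-genome mouse arrays with 2 per group. The groups were control cells, cells given menthol for 1 h (M), and cells given bacterial lipopolysaccharide (LPS) at 100 ng/ml for 6 h. Cells of the last group were given menthol for 1 h and then the same LPS (LPS+M). The labels gave no menthol dose, and no harvest time for control or M. The labels called the 2 arrays of a group biological replicates without saying whether they were separate cultures, so the p-values cover the spread between arrays, whose technical share is not known.

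LXRα (Nr1h3) and LXRβ (Nr1h2) are nuclear receptors that bind oxysterols, work as dimers with a retinoid X receptor (RXR), and switch on genes that move cholesterol out of the cell. In macrophages the best known of these are Abca1, which passes cholesterol to lipid-poor apolipoprotein A-I, and Abcg1, which passes it to high-density lipoprotein. The other LXR targets in the set are Mylip (IDOL), a ubiquitin ligase that sends the LDL receptor for degradation, Lpcat3, which places polyunsaturated chains in phospholipids, Srebf1, which encodes the fatty acid synthesis regulator SREBP-1, and Apoe, the apolipoprotein E secreted by macrophages.

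All values are log2 signals made by the GC-RMA method, so 1 unit is a doubling. Because probe sets differ in how well they bind, levels were compared between groups and never between genes. A gene was tested when its mean exceeded 4.84, the mean of all probe sets. It was called higher or lower when the Benjamini-Hochberg adjusted p of limma, over all tested genes, was under 0.05 and the fold change was at least 1.5, which is 0.585 on the log2 scale. Differences are given ± the standard error of that fit, with 2 arrays per group. All 10 macrophage markers with a probe set exceeded the filter, while none of the 14 markers of T cells, B cells, fibroblasts, epithelium and hepatocytes did. No macrophage marker was called when menthol was added, alone or before LPS. Over all tested genes, 3.01% were called higher and 1.54% lower in M against control, and 4.22% and 2.49% in LPS+M against LPS. None among 10 is near these shares. In LPS against control, 2 markers were called, Adgre1 higher and Fcgr1 lower, where 3.17% and 2.96% of all tested genes were.

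The genes lie on several chromosomes of the mouse genome (RefSeq, GRCm38.p6). Abca1 spans chr4:53030789-53159988, Abcg1 spans chr17:31057694-31117984 and Srebf1 spans chr11:60199084-60224186. RefSeq promoter windows, from 250 bases before a start to 50 after it, were at hand for 7 of the 8 genes, all but Abcg1, with 12 windows in all. LXR with its RXR partner is known to bind a direct repeat of AGGTCA with 4 bases of any kind between the copies, written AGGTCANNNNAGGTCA. On either strand, the best match in the window of Abca1 held 9 of the 12 fixed letters, and so did the best match in 1 window of Srebf1. The windows of the other genes held at most 8 of 12. Among 32851 promoter windows, 21.9% held a match with 3 or fewer letters differing, so a match of this quality was common. A search with at most 1 differing letter was met by 0.25% of windows, none of them a window of these genes. The window of Abca1 also held the hexamer CACGTG, known as an E-box, 147 bases before the start, and 7.15% of all windows held one.

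The match in Abca1 and the match in Srebf1 had the same half-sites. The form TGACCGNNNNTAACCC, searched on both strands, was found in 3 of the 32851 windows (0.00913%), those of Abca1, Srebf1 and the fatty acid synthase gene Fasn. This search was built after the sequences had been read, and a match is no proof of a bound site. The 250 bases before the start are printed for these 3 genes because no other window in the table held the form, and the transcript levels of each are given further on. Each gene is on the minus strand and is shown 5′ to 3′ in its own direction, with the 16 bases of the shared form in capitals. The Abca1 window is chr4:53159896-53160145, the Fasn window chr11:120824548-120824797 and the Srebf1 window chr11:60210472-60210721, upstream of the last of its starts in the table.
Abca1: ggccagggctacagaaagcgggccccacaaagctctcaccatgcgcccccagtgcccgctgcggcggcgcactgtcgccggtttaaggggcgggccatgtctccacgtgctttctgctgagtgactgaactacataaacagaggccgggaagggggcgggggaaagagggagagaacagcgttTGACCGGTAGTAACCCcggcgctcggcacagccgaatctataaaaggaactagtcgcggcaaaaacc
Fasn: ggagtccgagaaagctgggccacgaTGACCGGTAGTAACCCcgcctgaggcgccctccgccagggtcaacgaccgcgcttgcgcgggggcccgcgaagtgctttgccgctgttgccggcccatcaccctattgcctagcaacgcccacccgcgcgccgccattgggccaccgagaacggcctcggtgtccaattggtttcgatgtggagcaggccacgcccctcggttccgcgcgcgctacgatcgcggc
Srebf1: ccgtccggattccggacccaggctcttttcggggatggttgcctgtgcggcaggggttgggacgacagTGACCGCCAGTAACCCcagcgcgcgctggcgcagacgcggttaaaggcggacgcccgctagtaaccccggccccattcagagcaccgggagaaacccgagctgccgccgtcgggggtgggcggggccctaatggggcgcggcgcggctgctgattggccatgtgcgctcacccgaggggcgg
The capitals began 67 bases before the start in Abca1, 225 in Fasn and 182 in Srebf1. In Abca1 and Srebf1, 12 of the 12 half-site letters and 14 of all 16 were the same.

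Abca1 was higher in cells given menthol, with or without LPS, and Abcg1 was called higher in M against control. The main Abca1 probe set, 1421840_at, read 9.22 and 9.38 in control cells, 11.10 and 10.95 in M, 8.84 and 8.65 in LPS, and 10.24 and 10.33 in LPS+M. No array of one group overlapped another group, and the order was M, LPS+M, control, LPS. Abca1 was 3.30-fold higher in M than in control (log2 1.72 ± 0.09, limma adjusted p = 0.000103, 95% interval 1.51 to 1.94). It was 2.92-fold higher in LPS+M than in LPS (1.54 ± 0.09, adjusted p = 6.8e-05, interval 1.33 to 1.76). These comparisons share no arrays. In RNA from whole cultures, a change in the number of cells with a transcript and a change per cell cannot be told apart.

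LPS alone left Abca1 below control, by less than the fold minimum. The difference was -0.56 ± 0.09 (adjusted p = 0.00505, interval -0.77 to -0.34), and it was not called. It was -0.63 without the first control array and -0.65 without the first LPS array, and in both cases was called. Between the groups given menthol, LPS+M was lower than M by 1.66-fold (-0.74 ± 0.09, adjusted p = 0.00201). Cells given both agents still held 1.98-fold more Abca1 transcript than control cells (0.99 ± 0.09, adjusted p = 0.000204). LPS and M, the extremes, were 4.86-fold apart (-2.28 ± 0.09, adjusted p = 3.71e-06). The difference between the menthol effect with LPS and the menthol effect without it was -0.18 ± 0.13 (adjusted p = 0.738, interval -0.49 to 0.13).

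Abcg1, read by 1423570_at, had the same order of groups as Abca1 over a narrower range. Its arrays read 10.16 and 10.18 in control, 11.00 and 10.81 in M, 10.12 and 10.08 in LPS, and 10.72 and 10.53 in LPS+M. Both arrays of each menthol group lay above all control and LPS arrays. In M it was 1.67-fold above control (0.74 ± 0.09, limma adjusted p = 0.00164, interval 0.54 to 0.94). In LPS+M against LPS the difference was 0.52 ± 0.09 (adjusted p = 0.00415, interval 0.32 to 0.73), past the p threshold but under the fold minimum, so it was not called. Without the second LPS+M array it was 0.62 and was called. LPS against control gave -0.06 ± 0.09 (adjusted p = 0.653, interval -0.27 to 0.14), so these neighbours in the order did not differ beyond their spread. LPS was lower than M by 1.74-fold (-0.80 ± 0.09, adjusted p = 0.000343). The methods' t-test, even unadjusted, did not call Abcg1 in M against control or in LPS against M. LPS+M minus control was 0.46 ± 0.09 (adjusted p = 0.00522), and LPS+M minus M was -0.28 ± 0.09 (adjusted p = 0.0738). Neither was called. The difference of the menthol effects was -0.21 ± 0.12 (adjusted p = 0.641, interval -0.50 to 0.07).

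**Figure D1:**
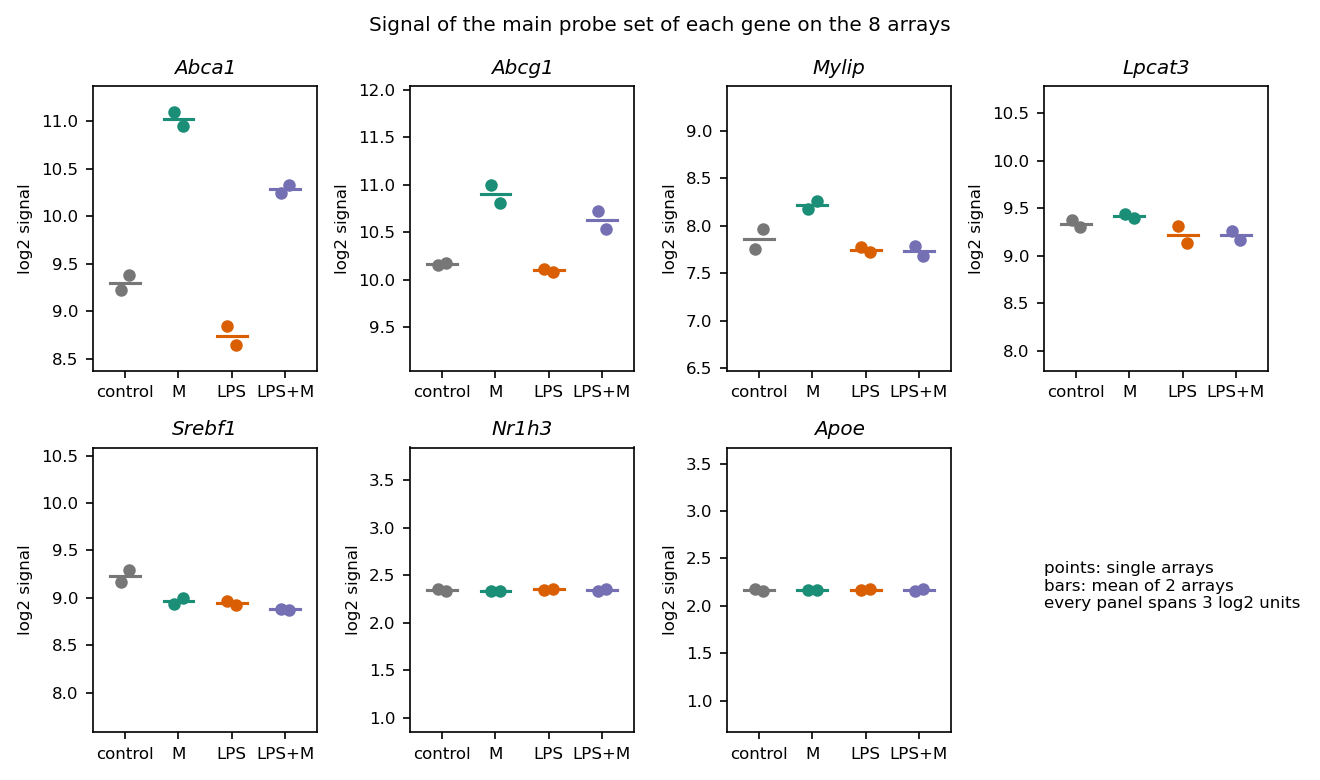
Log2 GC-RMA signal of the main probe set of each gene on each of the 8 arrays, by treatment group, with a line at the group mean and every panel spanning 3 log2 units. The M and LPS+M arrays of Abca1 and Abcg1 lie above all control and LPS arrays, while Nr1h3 and Apoe are flat at 2.33 to 2.36 and 2.16 to 2.18.

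Other probe sets of the transporters did not show the same differences. For Abca1, 1421839_at read from 3.12 to 3.48 and 1450392_at from 2.53 to 2.60 over the 8 arrays, both under the filter. For Abcg1, 1455221_at passed the filter at a mean of 5.71, the closest to it of all probe sets of these genes that passed, while 1421839_at of Abca1 at 3.22 was the closest of those that did not. It read 5.76 and 5.90 in control, 5.90 and 5.78 in M, 5.76 and 5.66 in LPS, and 5.33 and 5.61 in LPS+M. Tested by itself it gave 0.01 in M against control (limma adjusted p = 0.966) and -0.24 in LPS+M against LPS (adjusted p = 0.158). It gave -0.37 in LPS+M against control (adjusted p = 0.0427), past the p threshold and opposite in sign to the 0.46 of the main probe set. It was called in no comparison. The call on Abcg1 therefore rests on 1 of its 2 probe sets. Where each gene was instead read as the mean of its probe sets, 5 calls were lost. Abca1 was then 0.56 in LPS+M against LPS, -0.26 in LPS+M against M and 0.37 in LPS+M against control. Abcg1 was 0.37 in M against control and -0.47 in LPS against M. The Abca1 calls in M against control and in LPS against M held under that reading.

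**Figure D2:**
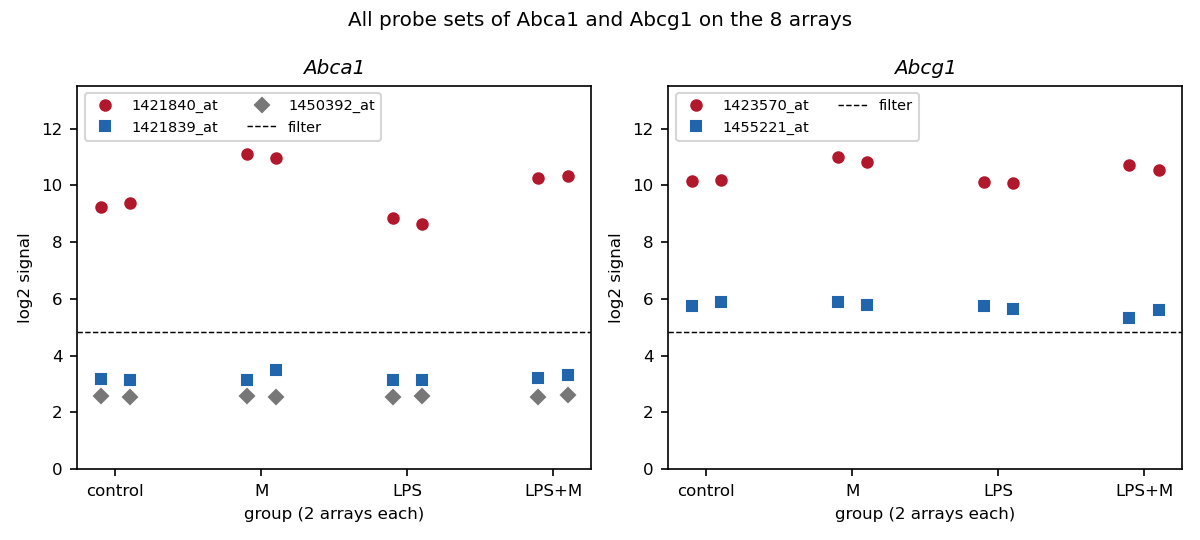
Log2 signal of every probe set of Abca1 and Abcg1 on each array, by treatment group, with the filter at 4.84 as a dashed line. The menthol groups stand higher in the main probe set of each gene, and the Abcg1 probe set 1455221_at runs between 5.33 and 5.90 with no such order.

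The receptors themselves gave little to compare. Nr1h2, which spans chr7:44549616-44553968, had no probe set named for it here and was not analysed. Nr1h3 (chr2:91184061-91202829) read from 2.33 to 2.36 on the 8 arrays of 1450444_a_at, with a mean of 2.34, and was not tested. Apoe (chr7:19696244-19701310), the secreted carrier among the targets, read from 2.16 to 2.18 on 1432466_a_at, with a mean of 2.17. A signal this far under the filter does not show that a transcript is absent from the cells.

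Mylip, Lpcat3 and Srebf1 were called in no comparison. Mylip (chr13:45389742-45411940), read by 1424988_at, gave 7.76 and 7.97 in control, 8.18 and 8.26 in M, 7.78 and 7.72 in LPS, and 7.79 and 7.69 in LPS+M. The M arrays lay above the other 6, and the other groups overlapped. M exceeded control by 0.36 ± 0.08 (limma adjusted p = 0.0216, interval 0.16 to 0.55), which is under the fold minimum. LPS+M minus LPS was -0.01 ± 0.08 (adjusted p = 0.914, interval -0.21 to 0.18). LPS+M minus M was -0.48 ± 0.08 (adjusted p = 0.00842), again under the fold minimum. The difference of the menthol effects was -0.37 ± 0.12, with an unadjusted p of 0.0148 and an adjusted p of 0.312 (interval -0.65 to -0.10).

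Lpcat3 (chr6:124663094-124704716) gave 9.37 and 9.30 on the control arrays of 1423960_at, 9.44 and 9.39 on M, 9.31 and 9.13 on LPS, and 9.26 and 9.17 on LPS+M. M minus control was 0.08 ± 0.08 (limma adjusted p = 0.498, interval -0.10 to 0.27), and LPS+M minus LPS was -0.01 with an interval of -0.19 to 0.17. These intervals leave out a change of 1.5-fold in either direction.

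Srebf1, read by 1426690_a_at, was highest in control cells. Its arrays read 9.16 and 9.29 in control, 8.93 and 9.00 in M, 8.97 and 8.93 in LPS, and 8.88 and 8.88 in LPS+M. All 6 treated arrays lay below both control arrays. M minus control was -0.26 ± 0.07 (limma adjusted p = 0.0292, interval -0.41 to -0.11), LPS minus control -0.28 ± 0.07 (adjusted p = 0.0214) and LPS+M minus control -0.35 ± 0.07 (adjusted p = 0.00551), all under the fold minimum. These 3 differences share the control arrays. LPS+M minus LPS was -0.07 ± 0.07 (adjusted p = 0.49, interval -0.22 to 0.09), so it did not differ beyond the spread.

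**Figure D3:**
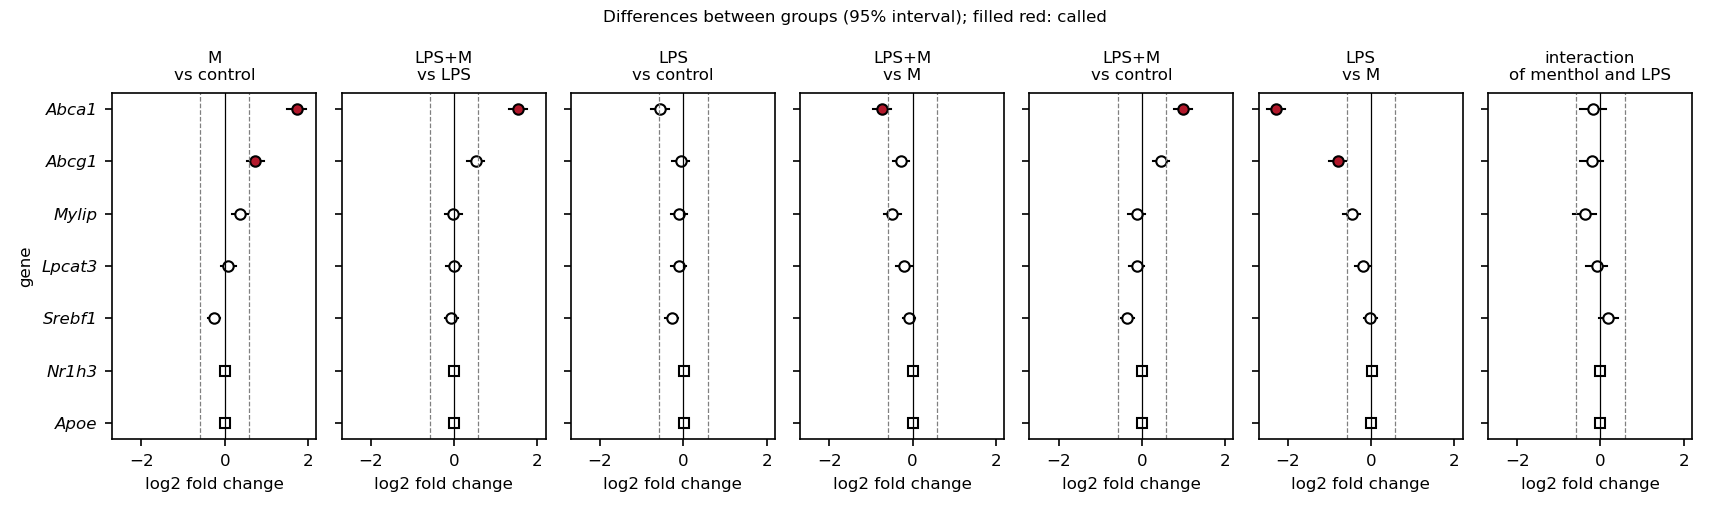
Log2 differences in each comparison, with 95% intervals of the limma fit, filled points for called genes, squares for the genes under the filter and dashed lines at the fold minimum of 1.5 in each direction. In M minus control the intervals of Abca1 (1.51 to 1.94) and Abcg1 (0.54 to 0.94) lie above 0, and that of Srebf1 (-0.41 to -0.11) lies below it.

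The calls were then set beside those over all tested genes. The LXR genes were chosen with earlier results of these data known, so a share above the background is no independent evidence. In M against control, 2 of the 5 tested genes were called higher and 0 lower, where 3.01% of the 8908 tested genes were called higher and 1.54% lower. Their median difference was 0.36, against 0.02 over all tested genes. In LPS+M against LPS, 1 of 5 was higher and 0 lower, where the background was 4.22% and 2.49%. The median was -0.01 against 0.03 over all tested genes. In LPS against control none of the 5 was called by limma, where 3.17% of genes were called higher and 2.96% lower. Of the 5, 2 passed the adjusted p threshold without reaching the fold minimum, Abca1 (adjusted p = 0.00505) and Srebf1 (adjusted p = 0.0214). The median was -0.11 against -0.03 over all tested genes. In LPS+M against M, 1 was lower and 0 higher, against 2.39% higher and 1.77% lower. In LPS+M against control, 1 was higher and 0 lower, against 5.53% higher and 4.30% lower. In LPS against M, 0 were higher and 2 lower, against 4.59% higher and 6.70% lower. For the difference of the menthol effects none of the 5 was called by limma, where 0.0337% of genes were called higher and 0.202% lower, and only Mylip had an unadjusted p under 0.05. Comparisons that share a group reuse its arrays.

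The lists of related genes hold the rest of the pathway, and were also chosen with earlier results of these data known. RXR partners and LXR coregulators had 15 tested genes of 18, and none was called by limma in M against control or in LPS+M against LPS. Of all tested genes, 3.01% were called higher and 1.54% lower in the former, and 4.22% and 2.49% in the latter. A count of 0 among 15 is near these shares. Rxrb, an RXR that can partner LXR, gave 0.44 ± 0.08 in M against control (adjusted p = 0.00715) and 0.48 in LPS+M against LPS (adjusted p = 0.00382), both under the fold minimum. Rxra gave 0.25 in M against control (adjusted p = 0.179). The coregulators moved both ways: in M against control Crebbp gave 0.47 (adjusted p = 0.00448) and Ncoa3 gave -0.51 (adjusted p = 0.00568), both under the fold minimum. Ncoa3 read 10.20 and 10.23 in LPS, and 9.75 and 9.53 in LPS+M. In LPS against control 1 gene was called, the coactivator Ncoa1, which was lower (-0.65 ± 0.07, adjusted p = 0.000767). There, 2.96% of all tested genes were called lower. Read as the mean of its probe sets, Ncoa1 was -0.39 and not called. The list medians were 0.14, 0.20 and -0.14 in these comparisons. In LPS against M, 4 genes of the list were lower and 0 higher, where 6.70% of all tested genes were called lower. They were Nrip1, Ncoa1, Tbl1xr1 and Rxra. Of these, Nrip1, Ncoa1 and Rxra were not called by the methods' unadjusted t-test. Ncoa1 was -0.57 without the second M array, Tbl1xr1 -0.55 without the second LPS array and Rxra -0.43 without the first, all under the fold minimum.

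Among other known LXR targets, a pair of lipid genes fell when menthol was added. Of 8 tested genes among 16, 2 were called lower in M against control and 0 higher, and the same 2 were lower in LPS+M against LPS. Over all tested genes, 1.54% and 2.49% were called lower in these comparisons. The 2 genes were Fasn, which makes palmitate, and Lpl, lipoprotein lipase. Fasn read 10.56 and 10.57 in control, 9.88 and 9.99 in M, 10.62 and 10.61 in LPS, and 10.12 and 9.93 in LPS+M. The menthol arrays lay below all others. Fasn fell by 0.63 ± 0.08 (log2) in M against control (limma adjusted p = 0.00203) and by 0.59 in LPS+M against LPS (adjusted p = 0.00171). Both values were close to the fold minimum: without the first M array the former was -0.57, and without the second LPS+M array the latter was -0.49, neither called. Lpl fell by 0.60 ± 0.07 (adjusted p = 0.00107) and by 0.86 (adjusted p = 0.000154). Without the second control array Lpl in M against control was -0.57 and not called. Under the methods' unadjusted t-test, Fasn was called in neither comparison. The medians of the list were -0.16 and -0.34.

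The SREBP-2 pathway, which raises sterol synthesis and LDL uptake when cell cholesterol is low, had 16 tested genes of 19. In M against control 6 were lower and 0 higher, and in LPS+M against LPS the same 6 were lower and 0 higher. Over all tested genes, 1.54% and 2.49% were called lower in these comparisons. The 6 genes were the brake protein Insig1 and the synthesis enzymes Hmgcs1, Idi1, Fdft1, Cyp51 and Mvd. Some of these calls were lost under the methods' unadjusted t-test. They were Cyp51 in M against control, and Insig1, Hmgcs1, Fdft1 and Mvd in LPS+M against LPS. The isomerase Idi1 read 11.50 and 11.47 in control, 10.29 and 10.26 in M, 11.64 and 11.71 in LPS, and 10.31 and 10.46 in LPS+M. Menthol arrays were thus more than 1 unit below their counterparts, a difference of -1.21 ± 0.07 (limma adjusted p = 0.000132) without LPS and -1.29 ± 0.07 (adjusted p = 4.55e-05) with it. Insig1 gave -0.75 and -0.83, Cyp51 -0.70 and -0.69, and Mvd -0.68 and -0.83. Read as the mean of their probe sets, Cyp51 in M against control (-0.51) and Fdft1 in both comparisons (-0.33 and -0.29) were not called, and Fdft1 in LPS+M against LPS was -0.56 and not called without the second LPS array. The medians over the 16 genes were -0.56 and -0.53, and in LPS against control the median was 0.04 with no gene called by limma. Srebf2 itself gave -0.35 in M against control (adjusted p = 0.0122), under the fold minimum.

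**Figure D4:**
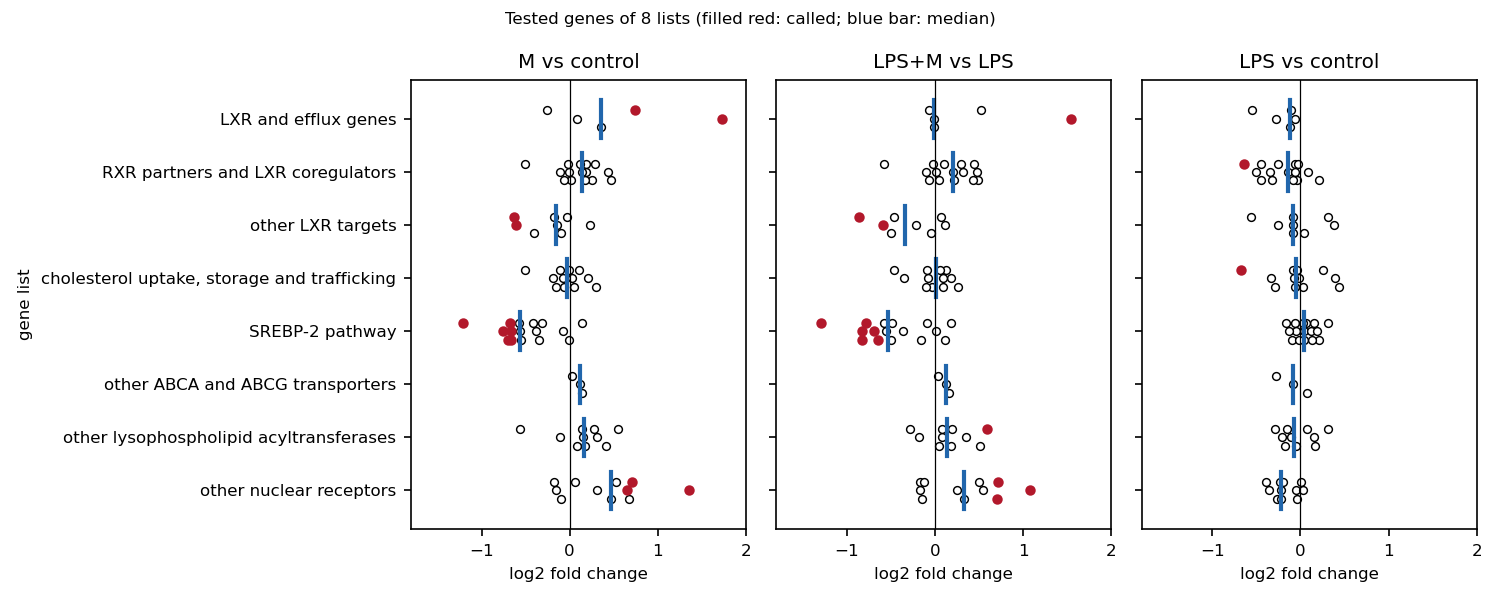
Log2 difference of each tested gene of 8 lists in M against control, LPS+M against LPS and LPS against control, 1 point per gene, filled where called, with a bar at the list median. The SREBP-2 genes lie mostly below 0, with medians of -0.56 and -0.53, and the other nuclear receptors mostly above it, with medians of 0.47 and 0.33 when menthol was added.

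The lists on cholesterol handling around the transporters had few or no calls. The shares of all tested genes were 3.01% higher and 1.54% lower in M against control, and 4.22% and 2.49% in LPS+M against LPS. In LPS against control they were 3.17% and 2.96%. Few or no calls among 12 or fewer tested genes are near these shares. Cholesterol uptake, storage and trafficking had 12 tested genes of 18, none of them called by limma when menthol was added, with medians of -0.03 and 0.01. Stard4 (-0.51, limma adjusted p = 0.0109) and Gramd1b (0.30, adjusted p = 0.0251) passed the p threshold in M against control, but not the fold minimum. In LPS against control 1 was lower, Nceh1, a cholesterol ester hydrolase (-0.68 ± 0.12, adjusted p = 0.00549), which was -0.57 and not called without the second LPS array. Of 5 enzymes that make or use oxysterols, only Cyp27a1, a sterol hydroxylase of the mitochondrion, was tested, and it gave 0.29 (adjusted p = 0.0242) in M against control and 0.36 (adjusted p = 0.00848) in LPS+M against LPS, both under the fold minimum. Ch25h, which makes an oxysterol from cholesterol, stayed under the filter at 3.11 to 3.88 on the 8 arrays and was not tested in the main analysis. Its arrays read 3.88 and 3.68 in control and 3.17 and 3.11 in M, and a fit with no filter gave -0.64 in M against control (limma adjusted p = 0.0163), a 1.55-fold lower signal. That fit gave -0.15 in LPS+M against LPS (adjusted p = 0.494). Other ABCA and ABCG transporters had 3 tested genes of 14, Abca3, Abca7 and Abcg2, and none of them was called by limma in any comparison.

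Among the other lysophospholipid acyltransferases, relatives of Lpcat3 in function, 10 of 12 were tested. None was called in M against control by limma, where 3.01% of all tested genes were called higher and 1.54% lower. Lpcat1 (-0.56, adjusted p = 0.00168) and Lpcat2 (0.55, adjusted p = 0.00133) came close to the fold minimum in opposite directions. Lpcat1 was -0.61 and called after each array was set to the same median over the tested genes. Lpcat2 was 0.59 without the first control array, past the fold minimum. In LPS+M against LPS, 4.22% of all tested genes were called higher. Agpat4 rose in LPS+M against LPS (0.59 ± 0.07, adjusted p = 0.00129), but was 0.55 and not called after quantile normalization and 0.56 after each array was set to the same median over the tested genes.

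Other nuclear receptors had 11 tested genes of 24. Of all tested genes, 3.01% were called higher in M against control and 4.22% in LPS+M against LPS. Among the 11, 3 were higher and 0 lower in each of these comparisons. In M against control these were Nr4a2, an immediate early receptor (1.36 ± 0.18, limma adjusted p = 0.00255), Ppard, the fatty acid sensor PPARδ (0.71 ± 0.07, adjusted p = 0.000568), and Nr1d2, the clock repressor REV-ERBβ (0.66 ± 0.08, adjusted p = 0.00179). Nr1d2 was 0.57 without the first control array and 0.32 as the mean of its probe sets, and in both cases was not called. Nor was Nr1d2 called by the methods' unadjusted t-test. In LPS+M against LPS they were Rora (1.08 ± 0.24, adjusted p = 0.0142), Ppard (0.71, adjusted p = 0.000361) and Nr2c2 (0.70, adjusted p = 0.0016). Rora was 0.74 without the first LPS array and 0.96 without the first LPS+M array, neither called, and Nr2c2 was 0.41 and not called as the mean of its probe sets. Rora was also not called by the methods' unadjusted t-test. Nr1d2 with LPS present (0.54 in LPS+M against LPS, adjusted p = 0.00247) passed the p threshold but not the fold minimum. So did Nr2c2 in M against control (0.52, adjusted p = 0.00725). For these genes the split between comparisons rests on the fold minimum. Rora in M against control (0.67, adjusted p = 0.0893) and Nr4a2 in LPS+M against LPS (0.33, adjusted p = 0.214) did not pass the p threshold. Ppard was thus the only one of the list called in both comparisons, which share no arrays. Its arrays read 6.03 and 6.12 in control, 6.73 and 6.83 in M, 6.01 and 6.03 in LPS, and 6.75 and 6.71 in LPS+M.

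Over the 8 arrays the profile of Abca1 was shared by many genes. Its Pearson correlation with Abcg1 was 0.969, with Mylip 0.682, with Lpcat3 0.486 and with Srebf1 -0.317. The arrays fall into the 4 treatment groups, so these values describe the group pattern and carry no test. The 3 tested genes nearest to Abca1 were Phldb1 (0.995), Mxi1 (0.991) and Snrk (0.990), and 518 tested genes had a correlation over 0.9. Nearest to Abcg1 were Gramd3 (0.987), Osbpl2 (0.986) and Bahd1 (0.984), and 343 genes passed 0.9.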

How the data were processed

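RNA of RAW 264.7 cells, 8 samples with 2 per treatment, was measured on Affymetrix whole-genome mouse arrays. The authors deposited log2 values per probe set, made by GC-RMA (per the submitters' processing notes with R version 2.6.1 and gcrma version 2.10.0), which corrects background from probe sequence, normalizes arrays to each other and summarizes probes. GC-RMA pulls low signals to a floor, which narrows differences there. Of 45101 probe sets, 34945 had 1 gene symbol in the platform annotation, 932 had several, 9160 had none and 64 were controls. Array medians ran from 2.99 to 3.04, and the 2 arrays of each group correlated at 0.9988 to 0.9994 over all probe sets.

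Per gene, the probe set with 1 symbol and the highest mean over the arrays was kept, and genes with a mean above 4.84 were tested. limma 3.58.1 (R 4.3.3) fitted all 8 arrays with 1 coefficient per group, leaving 4 residual degrees of freedom, and the spread was moderated over genes by eBayes. Contrasts were tested between all pairs of groups and of the menthol effects with and without LPS. The fit was run on simulated data with independent noise and changed genes shifted by 1 log2 unit. That run says nothing about smaller differences or about effects shared by arrays or cultures. The precision is limited by 2 arrays per group: an exact two-sided permutation test of 2 against 2 cannot go below p = 0.333. The genes and lists were chosen with earlier results of these data known. The text names all 8 genes, up to 4 called genes of a list with the largest differences and any gene of a list under 13 genes, and the 3 tested genes closest in profile to each called gene. Where more list genes are named, they were chosen after their values were seen. Promoters came from a RefSeq table of GRCm38.p6. Alternatives in filter, probe set, normalization, test, fold minimum, block and arrays are given at the end.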

Additional observations from a re-analysis of the deposited data

How the results depend on the processing

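The numbers of the 8 genes called (2 in M against control, 0 in LPS against control, 1 in LPS+M against LPS, 1 in LPS+M against M, 1 in LPS+M against control, 2 in LPS against M, and 0 for the difference of menthol effects) stayed within 1.5 times under 127 of 151 combinations of comparison and alternative. With the mean of all probe sets of a gene they were 1, 0, 0, 0 and 1 in M against control, LPS+M against LPS, LPS+M against M, LPS+M against control and LPS against M. The methods' t-test, unadjusted, gave 1 in M against control and 1 in LPS against M, with Abcg1 lost in both. After Benjamini-Hochberg adjustment it gave 0 in each comparison of 2 groups, and called no gene of the whole table, where its unadjusted p under 0.05 held for 828 to 1934 genes and limma called 371 to 1006. With no fold minimum, 4 genes passed in M against control, 2 in LPS against control, 2 in LPS+M against LPS, 2 in LPS+M against M and 3 in LPS+M against control. With a fold minimum of 2 they were 1, 0, 0 and 1 in M against control, LPS+M against M, LPS+M against control and LPS against M. The fewer or more calls under a changed fold minimum follow from the threshold. Under the mean of all probe sets, the lost differences were averages with probe sets that did not show them, and fell under the fold minimum. The cause of the other shifts was not tested.

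Leaving out 1 array at a time, LPS against control ran from 0 to 1 called and LPS+M against LPS from 1 to 2. The call in LPS against control was Abca1. Differences that turned sign were never called. In LPS+M against LPS, Mylip ran from -0.066 to 0.037 over the arrays left out, above 0 without LPS replicate 1 (0.012) and LPS+M replicate 2, and Lpcat3 from -0.10 to 0.083, above 0 without the same arrays (0.034 for the latter). In LPS against M, Srebf1 was 0.024 after quantile normalization, 0.030 after the arrays were set to the same median over the tested genes, and from -0.054 to 0.015 over the arrays left out, above 0 without M replicate 2. That median shift, chosen after seeing the data, gave 213 genes higher and 186 lower in M against control, where the deposited scaling gave 268 and 137.

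Same-numbered arrays showed little shared deviation (correlations of deviations from -0.12 to 0.19). The labels do not say whether the numbers pair the samples, and these correlations cannot decide it. With the replicate number as a replicate block, the counts were 2, 0, 1, 1, 1, 2 and 0, and Abca1 in M against control had an adjusted p of 0.000284. Over all tested genes, limma's calls in the comparisons of 2 groups (371 to 1006) became 253 to 663 with the mean of all probe sets, 217 to 640 with the methods' unadjusted t-test, 1268 to 3450 with no fold minimum and 85 to 329 with a fold minimum of 2. For the difference of menthol effects the 21 calls became 1 with no filter, 124 with unadjusted p, 45 with a trended, robust variance, 11 with a fold minimum of 2, and 2 (without M replicate 2) to 40 (without LPS+M replicate 2) with 1 array left out. Signals near the GC-RMA floor limit what can be said of Nr1h3 and Apoe.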
